A study of Mus musculus with 4 samples.

Results

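Messenger RNA of 38 genes of the primary cilium was compared between control hair follicle stem cells (HFSCs) and HFSCs of mice in which *Hes1*, a Notch effector that represses transcription, had been deleted in the epithelium. The 38 genes were taken as a given list of components of ciliary transport, the transition zone and the basal body, and 1 transcript cluster was read for each, the brightest over the 4 arrays among those annotated with that gene symbol alone. All 38 were found among 22180 genes measured in this way. They comprised 18 genes of intraflagellar transport (10 of the IFT-B complex, 3 of the IFT-A complex and 5 of its motors), 7 of the BBSome, 2 cargo adaptors, 7 of the transition zone and 4 of the basal body.

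The HFSCs were CD34+CD49f+ bulge cells sorted from telogen back skin of mice labelled postnatal day 70, with 2 mice pooled per sample and 2 arrays per genotype. The paper gives an age slightly later than this label, in the telogen that followed a depilation of the back skin common to both genotypes. *Hes1*eKO mice were Hes1 fx/fx;K14-Cre, and control mice were littermates without Cre that carried Hes1 fx/fx or Hes1 fx/wt. All were of mixed ICR and C57bl/6 background, and K14-Cre deletes in the whole keratinocyte lineage of the skin, not in the bulge alone. Each sample's RNA was read on 1 Affymetrix Mouse Gene 2.0 ST array, and all values below are RMA values on the log2 scale, so that a difference of 0.585 is a 1.5-fold change.

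The primary cilium is a single, non-motile antenna that most quiescent cells build on the mother centriole, the basal body. Kinesin-2 carries trains of IFT-B and IFT-A outward, dynein-2 brings them back, and the BBSome rides on these trains with membrane proteins as cargo. The transition zone at the base of the cilium is a gate that sets which proteins enter. In vertebrates Hedgehog signaling runs through this organelle, and in skin it drives the onset of hair growth.

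Promoters of the genes were read first, because regulatory factor X (RFX) proteins, which switch on ciliary genes in many animals, bind the X-box, and Hes proteins bind N-box and class C sites. RefSeq promoters (build GRCm38.p6, 250 bases before to 50 bases after a start site) were available for 33 of the 38 genes. The X-box half-site GTTGCC, searched on both strands, was found in 15 of these 33 genes (45.5%). It was found in 12.5% of all 32851 promoters of the same length, in 12.6% of those of protein-coding genes, and in 13.6% of protein-coding promoters within the range of GC content of the members. The class C site CACGNG was found in 13 of 33 genes (39.4%) and in 27.5% of all promoters, a share that was 37.4% among protein-coding promoters within the members' GC range. The N-box CACNAG was found in 16 genes (48.5%) and in 42.5% of all promoters. The letters CACGAG count for both of these motifs. The windows below show the half-site, in capitals, in the 8 genes that hold it among those whose array values are given further on. Each window is read along the strand on which the half-site reads GTTGCC.
*Ift57*, chr16:49699202-49699225, plus strand: gtctgGTTGCCgtggtgaccggct
*Ift57*, chr16:49699229-49699252, plus strand: ctgcgGTTGCCtggtaacggtggg
*Ift140*, chr17:25015964-25015987, minus strand: gcgagGTTGCCgtcacaacacgcc
*Dync2h1*, chr9:7177012-7177035, plus strand: cagcaGTTGCCaagctccgtcgct
*Kif3a*, chr11:53567266-53567289, plus strand: caggcGTTGCCccagtctagcgtc
*Bbs1*, chr19:4906608-4906631, minus strand: agctgGTTGCCaaggcgacgcctg
*Nphp4*, chr4:152478138-152478161, plus strand: tcccgGTTGCCagctgatgttggg
*Tctn2*, chr5:124598757-124598780, plus strand: tggtgGTTGCCatggctgcaggca
*Cep164*, chr9:45828618-45828641, plus strand: ggggtGTTGCCctgcagcgaccag
The other 7 genes with the half-site were *B9d1*, *Bbs5*, *Bbs7*, *Ift172*, *Ift27*, *Ift88* and *Mks1*. By group, it was present in 4 of 8 IFT-B genes with a promoter, 1 of 2 of IFT-A, 2 of 4 motors, 3 of 7 of the BBSome, 0 of 2 cargo adaptors, 4 of 6 of the transition zone and 1 of 4 of the basal body.

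The whole promoter of *Nphp4* is shown because this gene had the lowest p value of the 38. It is the last of its 3 RefSeq promoters along the plus strand, with the class C site and the X-box half-site in capitals.
*Nphp4*, chr4:152477892-152478191, plus strand: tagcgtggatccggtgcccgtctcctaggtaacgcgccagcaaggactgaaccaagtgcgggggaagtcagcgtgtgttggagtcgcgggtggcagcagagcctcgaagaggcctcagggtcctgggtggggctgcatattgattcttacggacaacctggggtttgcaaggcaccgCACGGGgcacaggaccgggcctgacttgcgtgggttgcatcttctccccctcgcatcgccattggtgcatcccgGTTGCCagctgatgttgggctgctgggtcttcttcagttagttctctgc
Of the other promoters of this gene, the middle one held class C sites and an N-box and no half-site, and the first held none of these motifs.

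No member passed the threshold used in the study, a fold change above 1.5 in either direction with an unadjusted p under 0.05. With limma, 0 of 38 had an unadjusted p under 0.05, beside 516 of 22180 genes by their brightest cluster. The lowest adjusted p of the members, taken over all 41345 clusters, was 0.99. The same threshold was passed by 3.2% of all clusters. Over genes by their brightest cluster, 0.789% passed as higher and 0.875% as lower in *Hes1*eKO, so 0 of 38 lay near the background. By the methods' t-test 0 members passed the threshold, beside 0.645% of all genes. That test gave an unadjusted p under 0.05 for 3 members (*Dync2h1*, *Ift43* and *Mks1*), each with a change below 1.5-fold. The share of all genes with a p under 0.05 by this t-test was not counted. In these 3 the arrays of each genotype lay within 0.05 of each other, and their limma p values were 0.35, 0.237 and 0.471. With limma-trend, 0 members had an unadjusted p under 0.05. When the replicate number of the arrays was added to the limma fit as a block, 1 member passed the threshold (*Tmem67*, −0.66), beside 2.26% of all genes. With 2 arrays against 2 an exact two-sided permutation test of a single gene cannot go below 0.333, and p values measure only the spread between these pooled samples.

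The log2 fold changes of the 38 genes, *Hes1*eKO minus control, ran from −0.66 (*Tmem67*) to 0.43 (*Ift80*), with a median of −0.09 beside −0.00 over all genes. They were negative for 24 members (63.2%) and for 50.5% of all genes. The median size of the change was 0.14 for the members and 0.16 for all genes, and the median standard error was 0.21 for both. The precision was low: the 95% interval lay wholly inside a 1.5-fold change either way for 7 of 38 members (18.4%), a share close to that of all genes (18.2%). Over the 38, 24 intervals reached a 1.5-fold decrease and 17 a 1.5-fold increase, so that changes of that size were not excluded in most members. In a bulk sample, fewer cells of a type and less RNA per cell cannot be told apart.

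**Figure D1:**
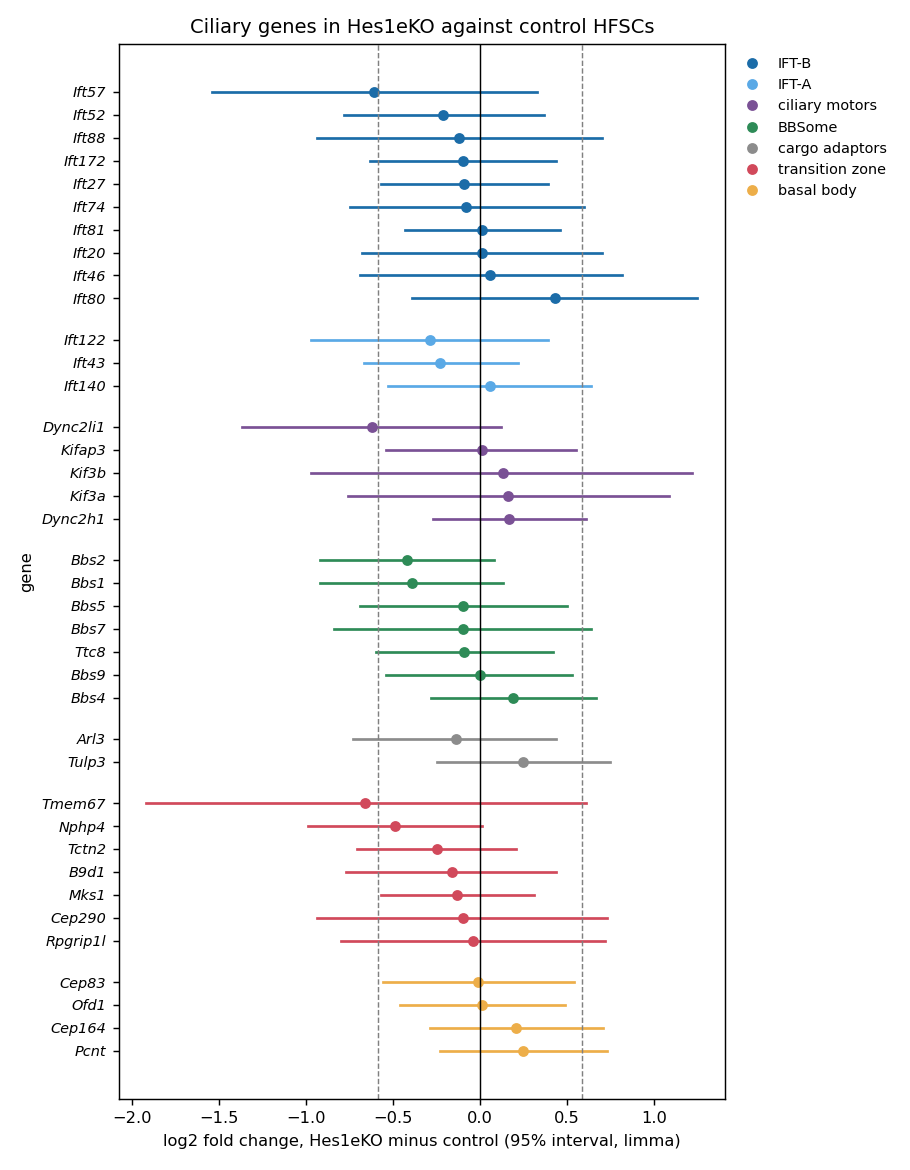
Log2 fold change of each ciliary gene, *Hes1*eKO minus control HFSCs (x axis), with its 95% interval from limma, by group of genes (y axis and colour). Dashed lines mark a 1.5-fold change. All 38 intervals contain 0, all 7 transition zone genes lie left of 0, and the values run from −0.66 to 0.43.

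Both *Hes1*eKO arrays lay below both control arrays for 8 members (21.1%), against 15.8% of all genes. These were *Ift57*, *Ift43*, *Dync2li1*, *Bbs1*, *Bbs2*, *Mks1*, *Tctn2* and *Nphp4*. Both lay above for 6 members (15.8%), against 16.2% of all genes, and these were *Ift80*, *Dync2h1*, *Bbs4*, *Tulp3*, *Cep164* and *Pcnt*. In the remaining 24 members the genotypes overlapped.

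Among the IFT-B genes, whose products form the outward train, values lay on both sides of 0, with a median log2 fold change of −0.08. *Ift57*, a peripheral IFT-B subunit, read 7.99 and 8.38 in control and 7.17 and 7.98 in *Hes1*eKO HFSCs. Both *Hes1*eKO values were below both controls, but the second *Hes1*eKO array lay only just below the first control. Its log2 fold change was −0.61 (95% interval −1.54 to 0.33). Without *Hes1*eKO replicate 2 it was −1.01, and without *Hes1*eKO replicate 1 it was −0.20. *Ift80*, another peripheral subunit, read 4.88 and 5.63 in control and 5.69 and 5.68 in *Hes1*eKO HFSCs, so the first control array alone stood low. Its log2 fold change of 0.43 (standard error 0.30) became 0.81 without control replicate 2 and 0.06 without control replicate 1. *Ift52*, of the IFT-B core, read 6.85 and 6.84 in control and 6.44 and 6.84 in *Hes1*eKO HFSCs (log2 fold change −0.21, standard error 0.21), and the first *Hes1*eKO array alone stood apart. The other 7 IFT-B genes had log2 fold changes between −0.12 and 0.06: the core subunit gene *Ift88* −0.12, *Ift172*, which acts in the turn from outward to inward transport, −0.10, *Ift27*, a small GTPase that helps the BBSome leave the cilium, −0.09, the tubulin carriers *Ift74* and *Ift81* −0.08 and 0.01, *Ift46* 0.06, and *Ift20*, which also works at the Golgi, 0.01.

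The 3 IFT-A genes, which serve inward transport and the entry of membrane proteins, had a median log2 fold change of −0.23. *Ift43* read 8.78 and 8.80 in control and 8.54 and 8.59 in *Hes1*eKO HFSCs. The arrays of each genotype lay within 0.05 of each other, and the log2 fold change was −0.23 (95% interval −0.67 to 0.22). *Ift122* read 5.29 and 5.56 in control and 4.88 and 5.38 in *Hes1*eKO HFSCs, overlapping, and differed by −0.29 (standard error 0.25). *Ift140* read 5.20 and 5.51 against 5.26 and 5.56, and its change of 0.06 was smaller than the difference between arrays of 1 genotype.

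Of the 5 motor genes, the one with the largest change was *Dync2li1*, the light intermediate chain of dynein-2. It read 7.29 and 6.80 in control and 6.20 and 6.64 in *Hes1*eKO HFSCs. Both *Hes1*eKO arrays were lower, and its log2 fold change of −0.62 (95% interval −1.37 to 0.12) exceeded 1.5-fold without reaching the p threshold. Without 1 array at a time it ran from −0.87 to −0.38. *Dync2h1*, the heavy chain of the same motor, read 5.13 and 5.10 in control and 5.29 and 5.29 in *Hes1*eKO HFSCs, the opposite direction with non-overlapping arrays (log2 fold change 0.17, standard error 0.16). The kinesin-2 motor genes followed no order by genotype. *Kif3a* read 5.68 and 6.31 in control and 6.48 and 5.84 in *Hes1*eKO HFSCs. *Kif3b* read 4.93 and 5.86 against 5.81 and 5.24. For both, the first control array and the second *Hes1*eKO array were the low ones, and the log2 fold changes were 0.16 and 0.13 with standard errors of 0.34 and 0.41. *Kifap3*, their accessory subunit, had a change of 0.01.

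In the BBSome, 6 of 7 genes had negative log2 fold changes, with a median of −0.10. *Bbs2*, which sits in the core of the complex, read 6.47 and 6.73 in control and 6.16 and 6.21 in *Hes1*eKO HFSCs. *Bbs1*, which binds membrane cargo, read 6.58 and 6.39 in control and 6.22 and 5.97 in *Hes1*eKO HFSCs. In both genes every *Hes1*eKO array was below every control array, with log2 fold changes of −0.42 (95% interval −0.92 to 0.08) and −0.39 (95% interval −0.92 to 0.13), 0.749 and 0.763 of the control level. *Bbs4* ran the other way, at 5.14 and 5.11 in control and 5.41 and 5.22 in *Hes1*eKO HFSCs (log2 fold change 0.19). The other 4 overlapped, with *Bbs5* and *Bbs7* at −0.10, *Ttc8* (also known as Bbs8) at −0.09 and *Bbs9* at −0.00.

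The 2 cargo adaptor genes differed in sign. *Tulp3*, which works with IFT-A to bring receptors into the cilium, read 6.65 and 6.76 in control and 7.07 and 6.84 in *Hes1*eKO HFSCs (log2 fold change 0.25, standard error 0.19), with both *Hes1*eKO arrays higher. *Arl3*, a GTPase that releases lipid-modified proteins inside the cilium, read 8.71 and 9.13 against 8.77 and 8.78, overlapping (log2 fold change −0.14).

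**Figure D2:**
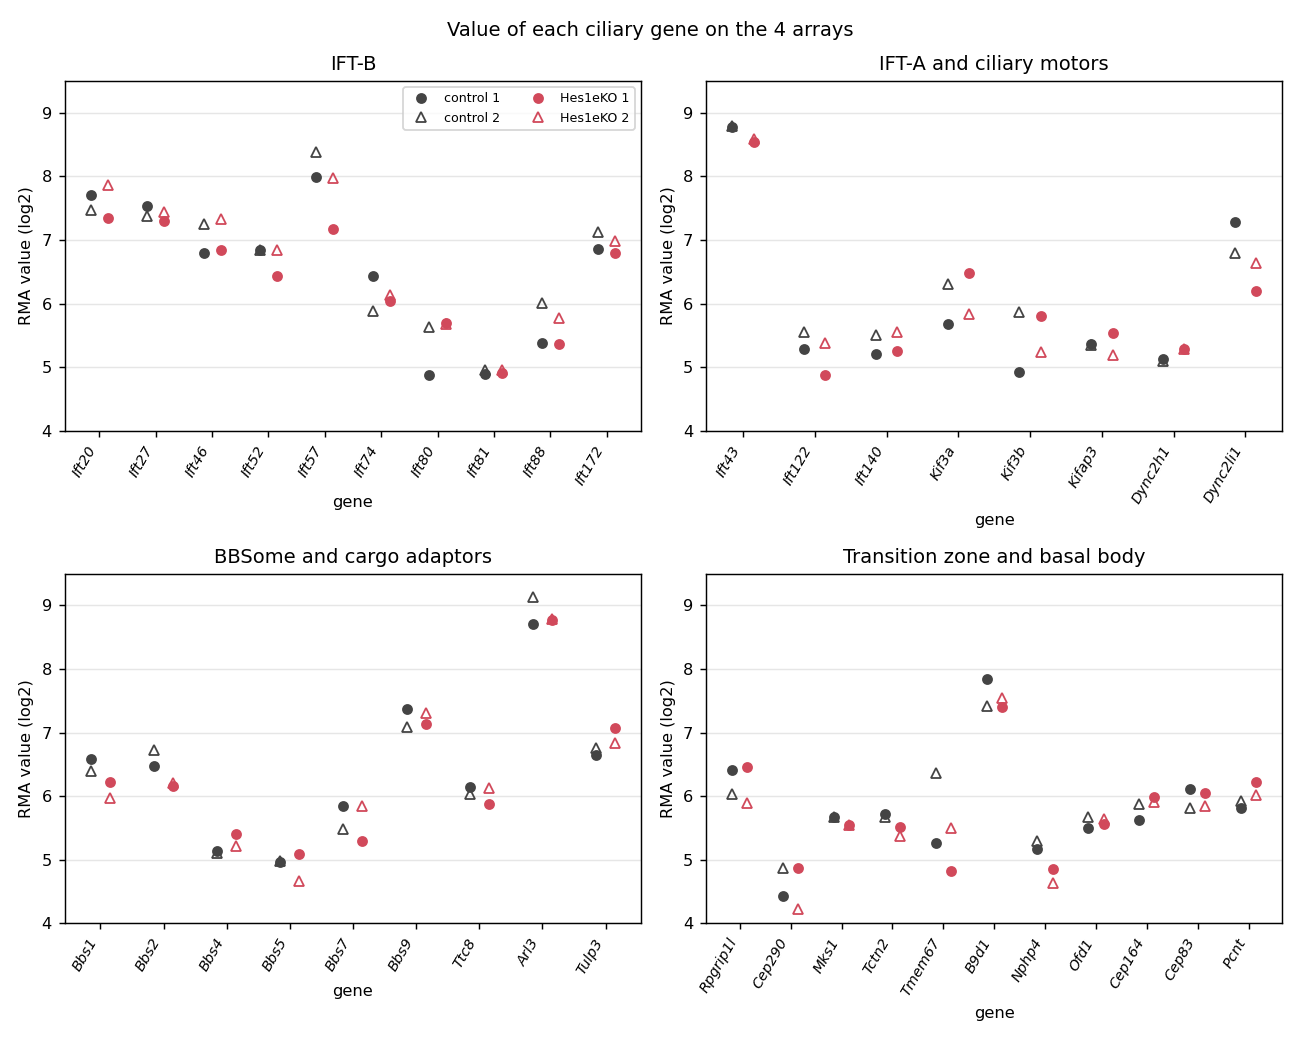
RMA value (log2, y axis) of each ciliary gene (x axis) on the 4 arrays, control in grey and *Hes1*eKO in red, circles for replicate 1 and triangles for replicate 2. *Bbs1*, *Bbs2*, *Nphp4* and *Tctn2* have both *Hes1*eKO arrays below both controls, and the order of the arrays for *Kif3a* and *Kif3b* turns between replicate numbers.

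The transition zone was the one of these groups in which every gene had a negative log2 fold change (7 of 7), with a median of −0.16 and a range of −0.66 to −0.04. None of the 7 passed the threshold in the fit without the replicate number. With the number as a replicate block *Tmem67* did, beside 2.26% of all genes. *Nphp4*, of the nephronophthisis module of the gate, read 5.17 and 5.29 in control and 4.86 and 4.63 in *Hes1*eKO HFSCs. Its *Hes1*eKO arrays were both lower, by more than the spread within either genotype, and its log2 fold change was −0.49 (95% interval −0.99 to 0.01), 0.712 of the control level. *Tmem67*, a membrane receptor-like protein of the gate, read 5.27 and 6.37 in control and 4.83 and 5.50 in *Hes1*eKO HFSCs, so that the first control array lay below the second *Hes1*eKO array. Its change was the largest in size of the 38, −0.66, with the largest standard error, 0.47, and it ran from −1.21 without control replicate 1 to −0.11 without control replicate 2. A second, dimmer *Tmem67* cluster read 2.69 and 2.49 in control and 2.43 and 2.40 in *Hes1*eKO HFSCs (log2 fold change −0.18, standard error 0.18). *Tctn2*, of the complex that also holds the *Mks1* and *B9d1* products, read 5.72 and 5.68 in control and 5.51 and 5.38 in *Hes1*eKO HFSCs, both lower (log2 fold change −0.25, standard error 0.17). *Mks1* was at −0.13 with arrays of each genotype within 0.01 of each other, *B9d1* at −0.16, *Cep290*, which ties the axoneme to the membrane, at −0.10, and *Rpgrip1l*, a scaffold of the zone, at −0.04. Without 1 array at a time, 4 of the 7 stayed negative throughout (*Nphp4*, *Tmem67*, *Tctn2* and *Mks1*), while *B9d1*, *Cep290* and *Rpgrip1l* changed sign. For *Nphp4*, *Tctn2* and *Mks1* both *Hes1*eKO arrays lay below both controls, so their sign could not change and this adds nothing further.

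The 4 basal body genes had a median log2 fold change of 0.11. *Pcnt*, the scaffold of the pericentriolar material, read 5.82 and 5.92 in control and 6.22 and 6.02 in *Hes1*eKO HFSCs (log2 fold change 0.25, standard error 0.18). *Cep164*, of the distal appendages that dock the basal body to the membrane, read 5.62 and 5.87 in control and 5.99 and 5.91 in *Hes1*eKO HFSCs (0.21, standard error 0.19). In both, the *Hes1*eKO arrays were the higher ones. *Cep83*, another appendage gene, read 6.11 and 5.81 against 6.05 and 5.85, and the X-linked *Ofd1*, needed for centriole length and docking, read 5.50 and 5.68 against 5.56 and 5.64, with changes of −0.01 and 0.01. Group medians are descriptions over few genes, and the difference between the transition zone and the basal body was not tested.

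The genotypes were also compared within each replicate number. The arrays of the 2 numbers differed in more than their number: *Xist*, the RNA that silences 1 X chromosome in female cells, read 8.80 in control and 8.95 in *Hes1*eKO HFSCs in number 1 and 2.93 and 3.17 in number 2. The labels give no sex, and what goes with *Xist*, what goes with the number and what goes with single arrays cannot be told apart. Control and *Hes1*eKO arrays of number 1 and of number 2 gave differences of opposite sign for 17 of 38 members (44.7%), near the 47.9% of all genes. The difference was negative in both numbers for 12 members and positive in both for 9. Over all 22180 genes it was negative in both for 5532 and positive in both for 5766. *Dync2li1* differed by −1.09 in number 1 and by −0.16 in number 2, and *Ift80* by 0.81 and 0.05. For *Kif3b* the differences were 0.88 and −0.63, for *Kif3a* 0.79 and −0.47, and for *Cep290* 0.44 and −0.64. *Bbs1* (−0.36 and −0.42), *Bbs2* (−0.31 and −0.52), *Ift43* (−0.24 and −0.21), *Nphp4* (−0.32 and −0.66) and *Tctn2* (−0.20 and −0.30) were lower in both numbers. This follows from both *Hes1*eKO arrays lying below both controls in these genes. Each amount is 1 array against 1 array, and differences between the amounts were not tested. The median over the BBSome was −0.27 in number 1 and 0.10 in number 2, whereas over the transition zone it was −0.20 and −0.30.

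**Figure D3:**
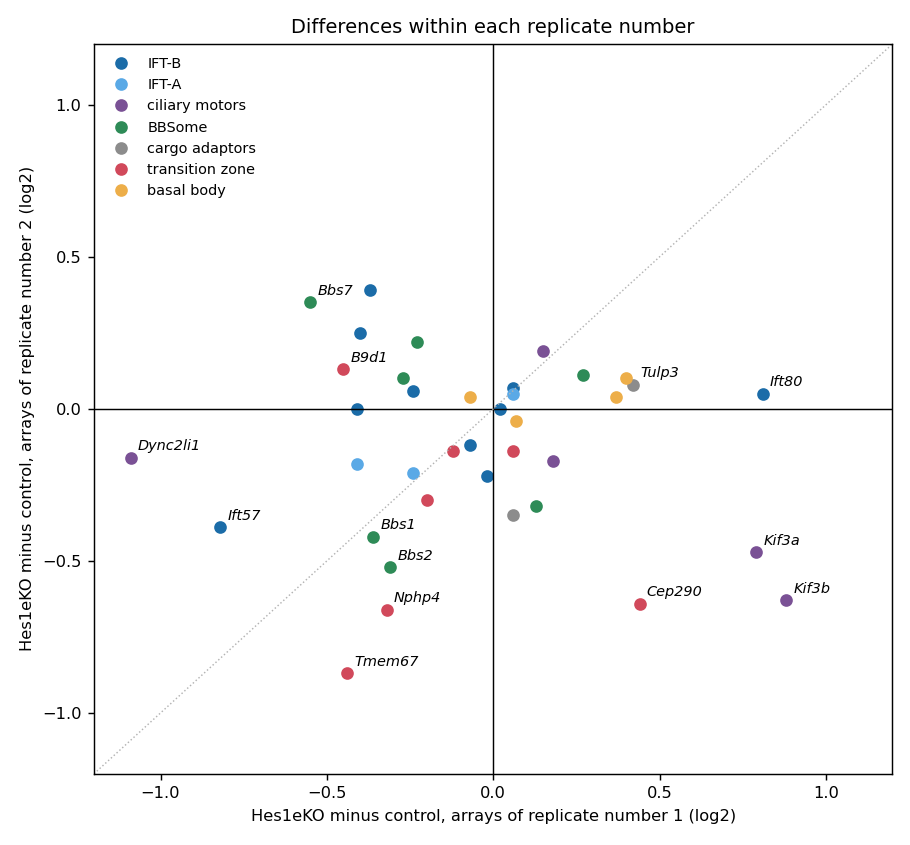
Difference between *Hes1*eKO and control for each ciliary gene on the arrays of replicate number 1 (x axis, log2) and of number 2 (y axis, log2), coloured by group, with equal values on the dotted line. *Bbs1*, *Bbs2*, *Nphp4*, *Tmem67* and *Ift57* lie below 0 on both axes, while *Kif3a*, *Kif3b* and *Cep290* are positive in number 1 and negative in number 2, among 17 genes of opposite sign.

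Genes with the X-box half-site had a median log2 fold change of −0.10 (15 genes, 11 negative), and genes with a promoter but without it −0.01 (18 genes, 10 negative). Their ranges overlapped almost fully, from −0.61 to 0.21 and from −0.42 to 0.25, and this difference was not tested.

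Of 74 other genes of the primary cilium listed by role, 64 were measured, and 0 of 64 passed the threshold with limma. An unadjusted p under 0.05 in limma was found for 1 of the 64, beside 516 of all 22180 genes. Their median log2 fold change was −0.02. Among other transport genes (17, median −0.06), *Wdr19*, an IFT-A subunit gene, was at 0.49 (standard error 0.34), and the IFT-B genes *Ttc30a1* and *Ttc26* at 0.46 and 0.38. *Ttc30a1* has near-identical copies, so its signal may be shared between them. Among other BBS and cargo genes (16, median 0.07), the chaperonin-like *Bbs12* was at 0.41 with both *Hes1*eKO arrays higher, and the carriers of lipid-modified proteins *Unc119* and *Pde6d* were at −0.35 and −0.33. Among other transition zone genes (13, median −0.00), *B9d2* was at −0.63, *Tctn3* at 0.52 and *Tmem138* at −0.46, and 7 of the 13 were negative, so these did not share the one sign of the 7 described above. Among other basal body genes (13, median −0.05), *Ccp110*, which caps the mother centriole and must leave for a cilium to form, read 6.80 and 6.94 in control and 6.23 and 6.35 in *Hes1*eKO HFSCs. Its log2 fold change of −0.58 (standard error 0.18) was past the p threshold and just under 1.5-fold, and with median centring it was −0.59 and passed. *Sclt1*, an appendage gene, was at −0.52 and *Cep97*, the partner of *Ccp110*, at 0.32. The 5 *Rfx* genes had changes between −0.15 and 0.11, with *Rfx1* at −0.15, *Rfx2* at −0.12, *Rfx7* at −0.11 and *Rfx5* at 0.11.

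Markers of the sorted population were bright on every array, with *Krt15* between 11.23 and 11.63 and *Sox9* between 9.90 and 10.30. Of 11 bulge markers measured, 0 passed the threshold, and their summed linear level was 15630 and 18460 in control against 16110 and 17790 in *Hes1*eKO HFSCs. This sum is weighted to the brightest, such as *Krt14* (12.26 to 12.42). Single markers ran from −0.46 (*Cd34*) to 0.75 (*Tcf7l1*), with 7 positive and 4 negative. *Cd34* read 10.70 and 11.24 in control and 9.85 and 11.17 in *Hes1*eKO HFSCs. *Hes1* itself read 5.34 and 5.04 in control and 5.05 and 4.37 in *Hes1*eKO HFSCs, overlapping. In skin rather than these sorted samples, the paper reports less *Hes1* RNA in the mutant epithelium by quantitative PCR. By in situ hybridization and immunostaining it found none in the epithelium of mutant follicles. Most genes of motile cilia were dim: *Foxj1*, *Dnah5* and *Dnah9* read between 3.36 and 4.45, around or below the array medians of 4.36 to 4.39. However, 4 of the 12 measured exceeded the overall median on 2 or more arrays, among them *Rsph4a* (4.58 to 5.23) and *Spag6* (4.48 to 4.76). The 12 motile cilia markers summed to 355.4 and 259.8 in control against 253.5 and 265.5 in *Hes1*eKO HFSCs, with *Tppp3* the brightest (7.55 on the first control array and 6.30 to 6.43 on the others), and 0 of 12 passed. All 38 members exceeded 4.38, the median value over all clusters, on 2 or more of the 4 arrays, as did 12942 of 22180 genes. The median over genes was higher, between 4.8 and 4.83 on the 4 arrays. Other markers differed by genotype or by array. Of 9 proliferation genes, 3 passed the threshold as lower in *Hes1*eKO HFSCs (*Mki67*, *Top2a* and *Ccna2*), beside 0.875% of all genes. All 9 had negative log2 fold changes, with a median of −0.59, and 88.9% of them had both *Hes1*eKO arrays below both controls, beside 15.8% of all genes, with summed linear levels of 759.4 and 593.0 in control and 406.5 and 416.3 in *Hes1*eKO HFSCs. T cell markers summed to 412.3 and 212.8 in control and 99.5 and 148.9 in *Hes1*eKO HFSCs. All 6 had negative log2 fold changes, with a median of −0.76, and 1 of 6, *Cd7*, passed the threshold as lower. The summed level of markers of Langerhans cells and macrophages was highest on the first control array (1779 against 203.5 to 392.7). It was carried mainly by *H2-Ab1* and *H2-Aa* (10.42 and 8.26 on that array). *Lyz2* of the same list ran the other way, at 2.71 and 3.05 in control and 4.31 and 3.15 in *Hes1*eKO HFSCs. Sums were also highest on the first control array for mast cells (140.1 against 30.98 to 32.25) and melanocytes (221.0 against 122.1 to 143.4). Of the 6 melanocyte markers, *Kit* alone passed, as lower in *Hes1*eKO HFSCs (−0.64), beside 0.875% of all genes. The genotypes overlapped in 4 of the 6, and *Tyr* (0.15) and *Pmel* (0.05) had positive log2 fold changes. Markers of differentiated epidermis were highest on the second *Hes1*eKO array (4350 against 1440 to 2671). Dermal fibroblast markers summed to 692.0 and 597.3 on the arrays of number 1 and to 2615 and 1857 on those of number 2. The brightest of them in number 2 was *Dcn*, at 10.42 in control and 9.95 in *Hes1*eKO, beside 4.83 and 3.88 in number 1. *Pdgfra* was lower in number 2 within *Hes1*eKO (5.31 in number 1 and 4.78 in number 2). The part of these cells, and of proliferation, in the ciliary values was not tested.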

How the data were processed

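Gene expression was measured in sorted HFSCs of 2 control and 2 *Hes1*eKO samples, each of 2 pooled mice. The authors deposited log2 values from RMA, which corrects background, normalizes across arrays and gives 1 value for each transcript cluster of Affymetrix Mouse Gene 2.0 ST arrays, with Affymetrix Expression Console 1.4.1 named in the submitters' processing notes. The genome build was not given in the sources used here. RMA brings all arrays to 1 distribution, so a shift shared by most genes would not be seen.

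All 41345 clusters were used as deposited and fitted with lmFit and eBayes of limma 3.58.1 (R 4.3.3), *Hes1*eKO against control with genotype as the one term. The threshold was that of the study's methods, and adjusted p values (Benjamini-Hochberg) were taken over all clusters. The methods name Partek software without a model. Of the clusters, 23521 carried 1 gene symbol, 1820 several and 16004 none in the platform annotation, and only the first kind was named. For a gene with several such clusters the brightest was taken. Summed linear levels are sums of 2 raised to the log2 value. The number of arrays limits the precision, and no source states separate litters for the samples.

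By rule, values on each array were given for members past the threshold and for the 3 members with the largest change in each group (2 for cargo adaptors), and the other cilium genes named were those past the threshold and up to 3 per group with the largest change. Outside this rule, and chosen after their values were seen, are the array values of *Kif3b* and *Ccp110*, and a further gene where changes tie at 2 decimals (*Cep83* and *Ofd1*, *Rfx5* and *Rfx7*). The members, the other lists and the motifs were chosen with earlier results of these data known. Of the other cilium genes listed, 10 had no cluster with their symbol alone and were not analysed here. Motifs were counted in RefSeq promoters, whose coordinates are those of GRCm38.p6. Python 3.11.15 and matplotlib 3.10.9 made the tables and figures. The fit was tested on simulated data.

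Alternatives were each array left out in turn, the replicate number as a block, median centring, quantile normalization, restriction to the 21360 clusters over the overall median on 2 or more arrays, the methods' t-test, limma-trend, the mean or the most extreme cluster per gene, and differences within a replicate number. According to the methods, controls were littermates of the same age and sex and samples formed pairs, but no source used here ties a replicate number to a pair, so the number entered only as an alternative.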

Additional observations from a re-analysis of the deposited data

How the results depend on the processing

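With single arrays left out, *Ift80* was at 0.81 without control replicate 2 and *Ift57* at −1.01 without *Hes1*eKO replicate 2. Of the other cilium genes, *Ttc30a1* was at 0.99 and *Cep89* at −0.69 without control replicate 1. These fits leave 1 array in a genotype, so no count past the threshold is given for them. With the replicate block, 1 member (*Tmem67*, −0.66) and 1 other cilium gene (*B9d2*) passed, beside 2.26% of all genes and 4.44% of all clusters. With median centring 0 members and 1 other gene (*Ccp110*) passed, beside 1.68% of all genes. Deviations of the number 1 arrays from their group means correlated between control and *Hes1*eKO at 0.1431 over all clusters. With 2 arrays per genotype, the deviations of number 2 are the negatives of these. No member or other cilium gene passed under the other tested settings that kept all 4 arrays. In each fit over clusters (the main one, each array left out, the replicate block, quantile normalization, median centring, the filter, the methods' t-test and limma-trend) no cluster had an adjusted p under 0.05, and the lowest, by the methods' t-test, was 0.0916. The median over the members ran from −0.14 to −0.03 without 1 array, over intraflagellar transport from −0.17 to 0.02, over the BBSome from −0.21 to 0.04, over the transition zone from −0.32 to −0.19, over the basal body from 0.10 to 0.20 and over other cilium genes from −0.04 to −0.01. Within replicate numbers 1 and 2 the median over the BBSome was −0.27 and 0.10 and that over other cilium genes −0.03 and −0.04, while the transition zone gave −0.30 in number 2 and the basal body 0.22 in number 1. Over other cilium genes it was −0.03 with median centring and with the mean of clusters, −0.05 with the filter on dim clusters and −0.04 with the most extreme cluster. The cause of these shifts was not tested.

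Without 1 array at a time, 18 of 38 members kept their sign and 20 did not. Members whose genotypes did not overlap could not change sign, and the share of all genes that kept theirs was not counted. The ranges of the 20 in log2 fold change were −0.25 to 0.27 for *Ift20*, −0.17 to 0.30 for *Ift46*, −0.35 to 0.20 for *Ift74*, −0.02 to 0.04 for *Ift81*, −0.44 to 0.19 for *Ift88* and −0.22 to 0.03 for *Ift172*. They were −0.10 to 0.21 for *Ift140*, −0.16 to 0.48 for *Kif3a*, −0.34 to 0.59 for *Kif3b* and −0.17 to 0.18 for *Kifap3*. In the BBSome and its adaptors they were −0.31 to 0.12 for *Bbs5*, −0.37 to 0.18 for *Bbs7*, −0.14 to 0.13 for *Bbs9*, −0.21 to 0.04 for *Ttc8* and −0.35 to 0.07 for *Arl3*. In the transition zone and basal body they were −0.33 to 0.24 for *Rpgrip1l*, −0.42 to 0.22 for *Cep290*, −0.38 to 0.05 for *B9d1*, −0.08 to 0.10 for *Ofd1* and −0.16 to 0.14 for *Cep83*. *Ift20* was at −0.00 with quantile normalization and *Kifap3* at −0.00 with median centring, both from 0.01. Every other member kept its sign under quantile normalization, median centring, the filter, the methods' t-test, limma-trend and both other ways of choosing clusters.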
